A study of Mus musculus with 15 samples.

Results

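The immunoglobulin heavy chain interval is a stretch of mouse chromosome 12 that holds the variable (V) segments of the antibody heavy chain. It was covered here, on the mm9 build, from chr12:114729640 to 117298954. Non-control probes of that stretch with a gene or transcript name were taken, 112 probes for 103 names, and a name was kept where 3 or more arrays of any group marked a probe as well above background. The brightest kept probe stood for each name. This left 41 transcripts, of 22639 named transcripts tested on the arrays. By their descriptions 37 are V segments, and 35 of these have a current symbol of the Ighv series. The other 4 are Adam6b, Zfp386, TC1586156 and NAP093099-001. The interval was chosen by its differences between mutant and wild-type embryos on these same arrays, so that comparison is given as a description, and its calls support nothing.

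Liver RNA was measured on 15 one-colour arrays from C57BL/6J mice. Wild-type animals (WT) were compared with littermates in which the copy from the mother lacked the microRNA cluster miR-379/miR-410 (KO). Animals of the embryonic age E19.5 came by caesarean and formed WT_E19 (3 arrays) and KO_E19 (3 arrays). Newborns (P0) came by natural delivery and formed WT_P0 (4 arrays) and KO_P0 (5 arrays). All 4 groups share the strain, the housing and the diet. The deletion was inherited through the germ line, and whole liver was extracted, so liver cells and the blood cells within the liver were measured together. Levels below are log2 of the processed signal relative to the array's 75th percentile, so 0 is that percentile and a negative level is a dimmer probe.

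Arrays differed in brightness: the 75th percentile, in log2 units, ran from 8.44 to 8.57 for WT_E19, from 8.81 to 9.05 for KO_E19, from 9.23 to 9.61 for WT_P0 and from 9.08 to 9.33 for KO_P0. Brightness did not overlap between the genotypes at E19.5, or between the ages within a genotype. It cannot be told apart from genotype or age in those comparisons. Mirg, a transcript of the deleted cluster, lay 3742 kb from the interval on the same chromosome. It was at 1.88 to 2.34 in WT_E19 and -1.51 to -1.09 in KO_E19, which checks the genotype labels of the E19.5 arrays. Its P0 values are not given here. Exocrine pancreas markers were raised on WT_P0 arrays 3 and 4, and skeletal muscle markers most on WT_E19 array 1, WT_P0 arrays 1, 2 and 4 and KO_P0 array 5. The median muscle level was -2.42 on WT_E19 array 3, against -4.24 on WT_E19 array 2 and -4.06 to -3.92 in KO_E19. Muscle markers also differed between the E19.5 genotypes, with a median KO minus WT difference of -1.29. Their summed log2 level was 2.01 to 3.08 in WT_E19 and 0.99 to 1.32 in KO_E19. Adrenal cortex markers were raised on WT_P0 array 2, with a median level of 2.29 against -1.38 to -0.50 on the other arrays. The part of these in the results was not tested beyond the values given below. The labels number the samples as replicates and name no litters, so the tests measure the spread between these samples, which may be technical.

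Each B cell builds its heavy chain gene by joining 1 V segment to a D and a J segment, and the constant mu segment (Ighm) lies beyond the J segments. Before joining, V segments are transcribed in their unrearranged form, and the recombinase cuts beside a short signal, the heptamer, that follows each V segment. The fetal liver is a site of blood formation in which early B cells arise, and the Ighv1 family, also called J558, fills much of the end of the locus farthest from the constant segments. In a whole tissue, fewer cells of a type and less RNA per cell cannot be told apart.

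The probes are 60 bases long, and 39 of the 41 lie on the minus strand. The probes below show what the measurements rest on, because V segments are near copies of each other. In the first 4 pairs the capitals mark the longest run of bases that both probes share. The last sequence is the single probe of the 41 with the heptamer CACAGTG, which is in capitals.

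Ighv1-67: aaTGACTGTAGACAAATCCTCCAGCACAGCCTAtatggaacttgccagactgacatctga
Ighv1-52: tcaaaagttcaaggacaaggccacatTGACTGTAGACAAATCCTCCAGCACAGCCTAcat
Ighv1-80: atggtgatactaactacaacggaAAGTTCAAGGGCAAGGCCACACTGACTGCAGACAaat
Ighv1-83: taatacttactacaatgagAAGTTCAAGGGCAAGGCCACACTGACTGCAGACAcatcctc
Ighv1-39: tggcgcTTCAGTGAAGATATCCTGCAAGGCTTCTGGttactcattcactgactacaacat
Ighv1-22: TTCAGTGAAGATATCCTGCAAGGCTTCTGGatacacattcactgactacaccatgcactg
Ighv5-4: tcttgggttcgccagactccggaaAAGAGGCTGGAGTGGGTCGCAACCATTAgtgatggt
Ighv5-9: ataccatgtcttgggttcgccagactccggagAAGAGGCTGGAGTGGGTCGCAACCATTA
LOC100505009: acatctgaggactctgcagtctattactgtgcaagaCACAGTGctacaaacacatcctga

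All 9 are minus-strand mm9 positions on chromosome 12. The Ighv1 pairs are chr12:116842179-116842238 and chr12:116383750-116383809 (Ighv1-67 and Ighv1-52, 31 shared bases), chr12:117150626-117150685 and chr12:117202095-117202154 (Ighv1-80 and Ighv1-83, 34 bases), and chr12:116153003-116153062 and chr12:115984671-115984730 (Ighv1-39 and Ighv1-22, 30 bases). The Ighv5 pair lies at chr12:114835791-114835850 and chr12:114900122-114900181 and shares 28 bases. LOC100505009, described on the array as similar to an immunoglobulin mu chain, lies at chr12:117247846-117247905. Its heptamer spans bases 37 to 43 of the probe, and the heptamer was in 1.61% of the 55681 non-control probes on either strand. Of the 21 Ighv1 transcripts, 19 had a probe that shares at least 20 bases with another of the 41 probes, against 5 of the other 16 V segments. A probe can therefore read more than 1 V segment, and single Ighv1 values are uncertain as to which segment they come from. No mm9 gene models were used here, so exons are not given.

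Most V segment transcripts of the far end of the interval were higher in KO_E19 than in the other groups. Each transcript was placed in 1 of 3 equal sections of 856.4 kb, called near, middle and far by their distance from the constant segments. Among the V segments, the median KO minus WT difference at E19.5 was 0.30 in the near section (12 segments), 0.76 in the middle section (13) and 1.41 in the far section (12), on the log2 scale. Over all 22639 names the median difference was 0.02. The rank correlation of this difference with position along the interval was 0.63 over the 37 V segments, which share arrays and in part sequence.

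The far section showed the pattern most clearly. In the far section 10 of the 12 V segments had all 3 KO_E19 arrays above all 3 WT_E19 arrays, against 7 of 13 in the middle section and 3 of 12 in the near section. Over all 41 transcripts this held for 21, and over all names for 6.84%. The 3 KO_E19 arrays were above all of the other 12 arrays for 9 of the 12 far V segments and for 0.994% of all names. The calls on which the interval was chosen are Ighv1-67, Ighv1-39 and LOC100505009, 3 of the 41, each higher in KO, where 0.0353% of all names were called in either direction and 0.0133% higher. Nothing is read from these calls. The far segment Ighv1-80 and the near segment Ighv9-3 met the detection rule in KO_E19 alone, the group with their highest mean level, so the rule favoured a difference in both. Without them the far median was 1.38 over 11 segments, 9 of them with separate groups, and the near median 0.25. The far median was 1.46 without the 5 arrays most raised in muscle markers, which left WT_E19 array 3 in. It was 1.71 with each array's 75th percentile as a covariate. Every KO_E19 array was brighter than every WT_E19 array, so that covariate cannot separate brightness from genotype. Nothing is read from the 1.71.

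**Figure D1:**
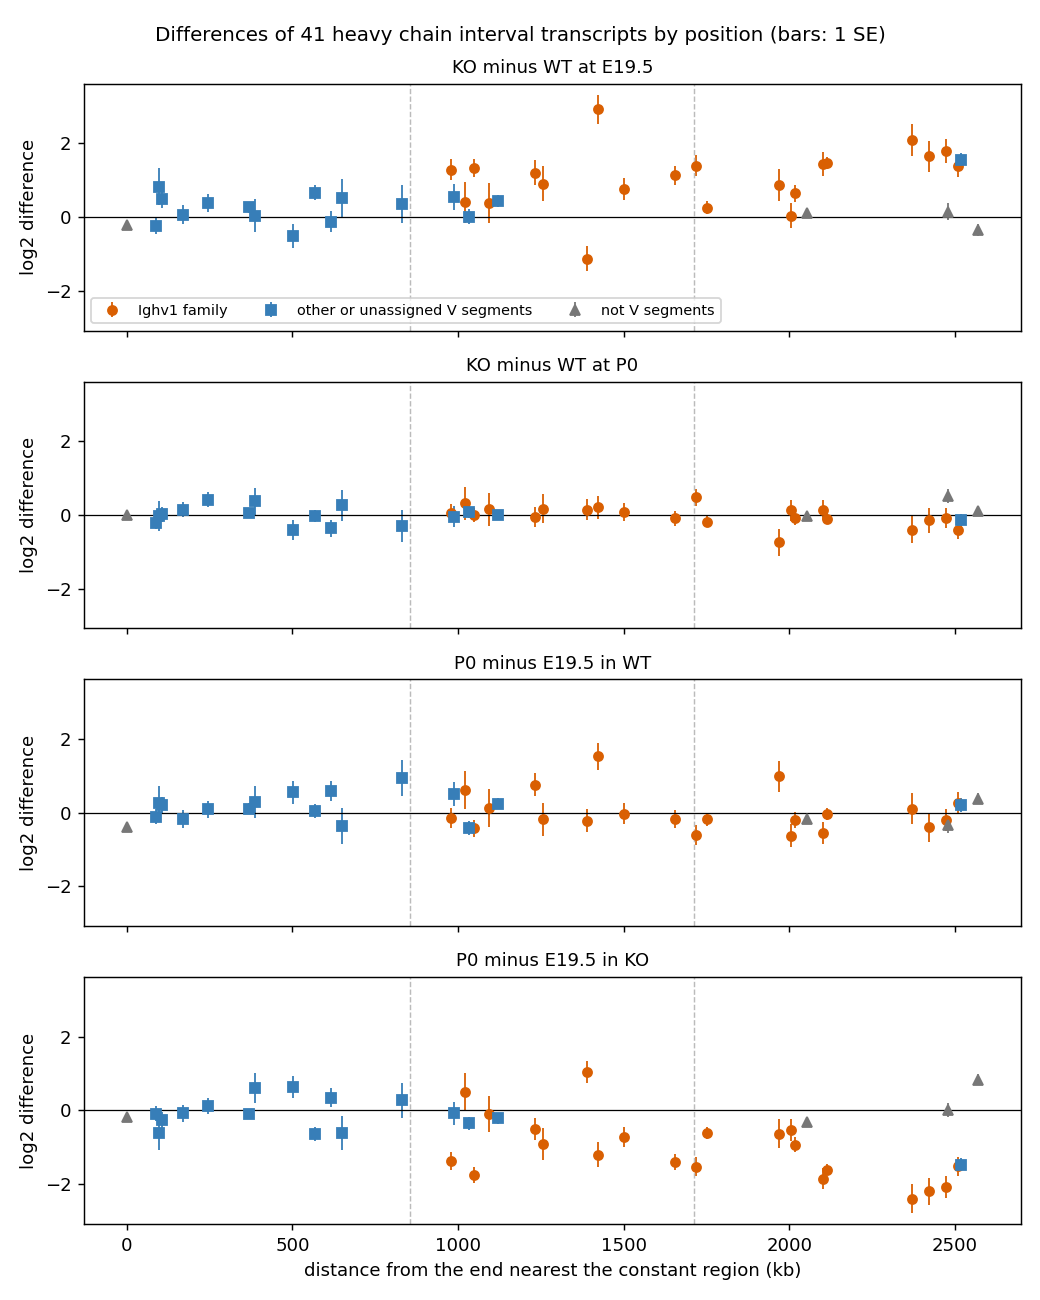
Log2 difference of each of the 41 transcripts (y axis, bars 1 SE) by distance in kb from the end of the interval nearest the constant segments (x axis), in 4 comparisons; dashed lines bound the sections. Ighv1 transcripts of the far section lie mostly between 0.63 and 2.09 in KO minus WT at E19.5, and near 0 at P0.

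Ighv1-67, a V segment 2112.5 kb from the near end, was at -3.97, -3.92 and -3.85 on the WT_E19 arrays and at -2.29, -2.57 and -2.49 on the KO_E19 arrays. At P0 it was between -4.25 and -3.56 in WT and between -4.36 and -3.83 in KO. The 3 KO_E19 values were the highest of the 15, and the other groups overlapped. Its KO minus WT difference was 1.46 (SE 0.17) at E19.5, a 2.75-fold higher signal, and -0.11 (SE 0.14) at P0.

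LOC100505009, whose probe runs past the end of the V segment into the heptamer, was at -3.93, -3.86 and -3.79 in WT_E19 and at -2.14, -2.47 and -2.38 in KO_E19. At P0 its levels were -3.97 to -3.43 in WT and -4.43 to -3.56 in KO. Again the 3 KO_E19 arrays stood above all others, by 1.53 (SE 0.21) over WT_E19, or 2.88-fold. Joining removes the heptamer from a V segment, and how much of the probe the RNA paired with was not measured.

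Ighv1-77, at 2371 kb, was at -3.52, -5.02 and -3.28 in WT_E19 and at -1.83, -2.03 and -1.69 in KO_E19. The WT_E19 arrays were spread over more than a log2 unit and still lay below each KO_E19 array. The difference was 2.09 (SE 0.44), or 4.25-fold, the largest of the far section.

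Ighv1-83 was at -4.01, -4.33 and -4.64 in WT_E19 and at -2.37, -2.71 and -2.57 in KO_E19, a difference of 1.78 (SE 0.33). Ighv1-80, which shares 34 bases with it and was well above background on 3 arrays of a group in KO_E19 alone, was at -4.33, -4.97 and -5.06 against -2.99, -3.18 and -3.27, a difference of 1.64 (SE 0.42). In both, no WT_E19 array reached the lowest KO_E19 array. The remaining far segments with separate groups were Ighv1-66 (difference 1.43), Ighv1-55 (1.38), Ighv1-85 (1.36), Ighv1-62-3 (0.86) and Ighv1-64 (0.63). Ighv1-55 and Ighv1-62-3 were not well above background on any WT_E19 array, so their folds of 2.61 and 1.82 rest on uncertain WT_E19 levels.

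Some far V segments lacked the difference. Ighv1-63 was at -3.63, -4.02 and -4.40 in WT_E19 and -3.78, -3.64 and -4.54 in KO_E19, and Ighv1-56 was at -2.61, -2.81 and -3.03 against -2.38, -2.79 and -2.54. In both the groups overlapped, with differences of 0.03 (SE 0.34) and 0.25 (SE 0.18).

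In the middle section the Ighv1 transcripts varied most. Ighv1-39 was at -6.89, -6.26 and -5.67 in WT_E19 and at -3.29, -3.59 and -3.20 in KO_E19. It was not well above background on any WT_E19 array and was on all 3 KO_E19 arrays. Its 7.53-fold higher signal on this scale, the largest difference of the 41, rests on WT_E19 levels that are uncertain. That size depended on the treatment of dim signals, as the log2 difference was 0.89 in the authors' deposited table and 0.32 with a normexp background, a correction that models the background of each array. Its near copy Ighv1-22 was at -5.99, -3.69 and -5.13 against -3.82, -4.29 and -4.01, and there the groups overlapped.

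Ighv1-7, the brightest Ighv1 transcript, was at -2.23, -2.84 and -2.43 in WT_E19 and -1.06, -1.33 and -1.17 in KO_E19, a difference of 1.32 (SE 0.24). Ighv1-52, which shares 31 bases with Ighv1-67, was at -3.05, -3.10 and -2.89 against -1.87, -1.98 and -1.81, a difference of 1.12 (SE 0.25). Ighv1-2, listed as a pseudogene, differed by 1.28 (SE 0.29) and Ighv1-20 by 1.19 (SE 0.34), both with separate groups.

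Ighv1-36 went the other way, as did the near transcript ENSMUST00000103467 (-0.52, SE 0.33), the 2 of the 41 with KO_E19 wholly below WT_E19 where 5.34% of all names were. Ighv1-36 was at -4.30, -4.80 and -4.77 in WT_E19 and at -5.63, -5.63 and -6.02 in KO_E19. All 3 KO_E19 arrays were lower, none of them was well above background, and only 1 WT_E19 array was, so the difference of -1.13 (SE 0.33) lies near the limit of the measurement. Of the 2 middle-section V segments of another named family, Ighv10-3 was flat, at -1.83, -2.16 and -2.45 against -1.72, -2.28 and -2.44. The other, Ighv10-1, differed by 0.53 (SE 0.36) with overlapping groups. AY171990, a middle V segment without a family name, differed by 0.44 (SE 0.16) with separate groups.

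In the near section, where no V segment is of the Ighv1 family, the differences were smaller. Ighv5-17, among the brightest V segments, was at -2.34, -2.54 and -2.21 in WT_E19 and at -1.89, -2.34 and -2.09 in KO_E19, with overlapping groups and a difference of 0.25 (SE 0.15). Ighv5-9 was at -3.19, -3.41 and -3.18 against -3.21, -3.31 and -3.11, a difference of 0.05 (SE 0.26). Its neighbour Ighv5-4 differed by 0.48 (SE 0.24). Ighv14-3 was the 1 near segment with KO_E19 above all the other arrays, at -1.63, -1.82 and -1.58 against -2.47, -2.34 and -2.16 in WT_E19.

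**Figure D2:**
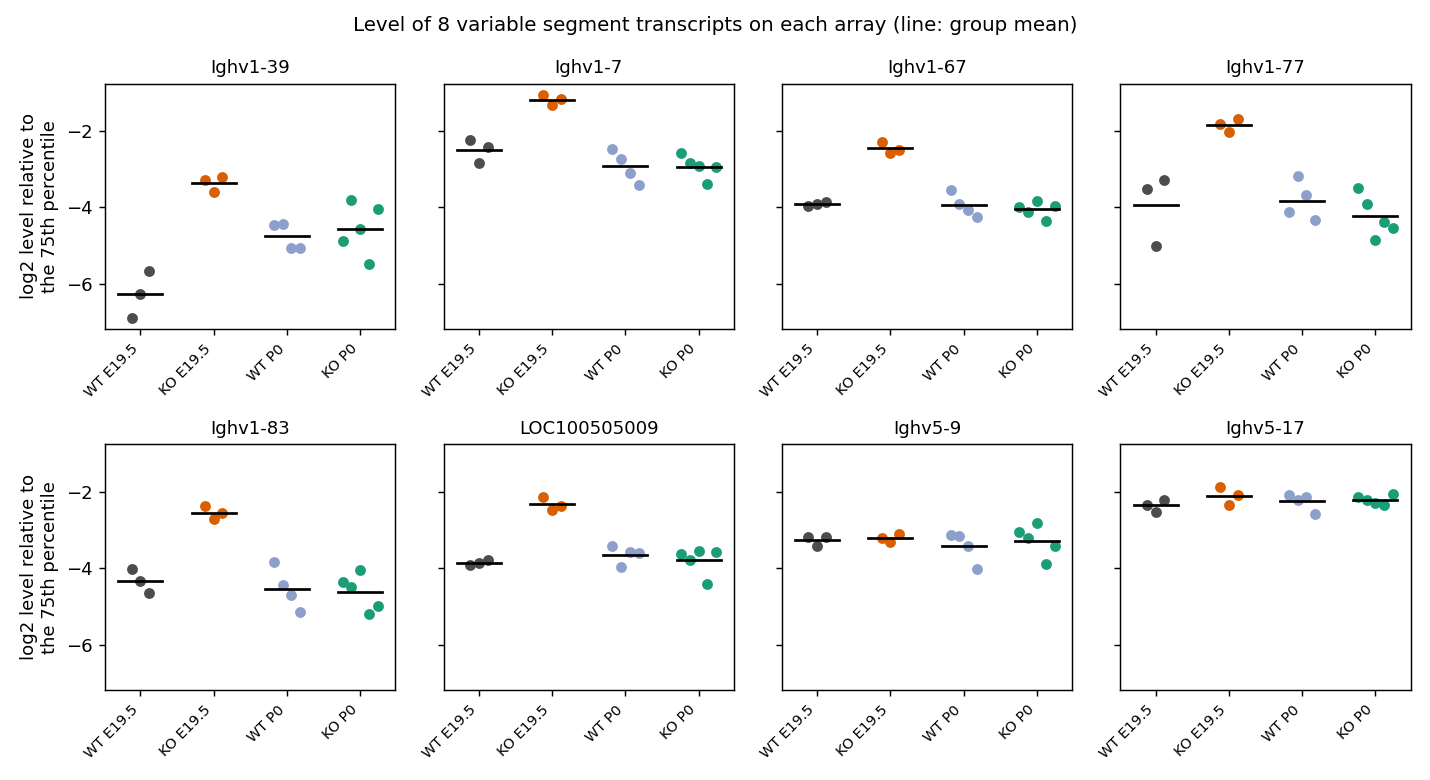
Log2 level relative to the 75th percentile (y axis) of 8 V segment transcripts on each array by group (x axis); points are arrays and lines are group means. KO_E19 stands above the other groups in the 5 Ighv1 panels and in LOC100505009, and overlaps them in Ighv5-9 and Ighv5-17.

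Family and position move together in the locus: all 12 near V segments are of other families, and 11 of the 12 far ones are Ighv1. Over the 21 Ighv1 transcripts the median difference at E19.5 was 1.19, with 20 above 0, and over the 14 transcripts of other named families it was 0.30, with 11 above 0. Within the middle section, the 10 Ighv1 transcripts had a median of 1.01 and the 2 others had differences of 0.00 (Ighv10-3) and 0.53 (Ighv10-1). Within the Ighv1 family, the median was 1.01 in the middle section and 1.38 in the far section. With so few segments of other families outside the near section, family and distance cannot be told apart.

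The 4 transcripts that are not V segments differed less. Zfp386, a zinc finger gene at the far edge of the interval, was at 0.70, 1.24 and 1.09 in WT_E19 and 0.78, 0.46 and 0.72 in KO_E19, with overlapping groups. TC1586156, a far-section transcript that the array describes as a partial match to tumour necrosis factor, differed by 0.14 (SE 0.22). Adam6b, an ADAM-family gene at the near edge, differed by -0.22 (SE 0.13). NAP093099-001, an undescribed and very bright transcript, was at 5.77 on each WT_E19 array and between 5.86 and 5.90 in KO_E19, groups that did not overlap, with a difference of 0.11 (SE 0.10). A second probe of that name, 1802.6 kb from the near end, was near -3.91 in WT_E19 and -3.26 in KO_E19, far dimmer than the first.

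At P0 no difference between the genotypes passed the test among the 41. None was called, where 7.03% of all names were called (limma, adjusted p under 0.05), and 1 of the 41 had an unadjusted p under 0.05. No transcript had KO_P0 wholly above or wholly below WT_P0, where 3.68% and 5.42% of all names had. The median difference was -0.01 over the 41 and 0.02 over all names. It was -0.01 in near V segments, 0.07 in middle ones and -0.13 in far ones. The differences ran from -0.75 (Ighv1-62-3, adjusted p = 0.22) to 0.50 (TC1586156, adjusted p = 0.11). Ighv1-39, so different at E19.5, was at -4.45, -4.43, -5.06 and -5.05 in WT_P0 and between -5.48 and -3.81 in KO_P0, with WT inside the KO range. Its difference was 0.20 (SE 0.32).

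Between E19.5 and P0, the change of the interval in WT livers depended on the scaling. In WT, 2 of the 41 were called, where 19% of all names were. With a normexp background 36 were called, with a median of -0.50 over the kept transcripts. The median there was -0.16 over all names and -0.39 over the kappa light chain interval. With each array's 75th percentile as a covariate 0 were called, with a median of 0.93, against 0.09 over all names. The shares of all names called under these 2 settings are not given here, so nothing is read from the 2 counts. Ighv1-39 rose by 1.53 (SE 0.36, adjusted p = 0.011, limma), or 2.88-fold, from a group with no array well above background. With a normexp background its difference was -0.44. Adam6b fell by 0.40 (SE 0.12, adjusted p = 0.036), from -3.66, -3.27 and -3.32 to -3.80, -3.88, -3.58 and -4.02, with the groups overlapping by 1 array. On the scale used here the median change over the 41 was -0.03, and over far V segments -0.19.

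In KO livers the far transcripts were lower at P0 than at E19.5. The interval was chosen with KO_E19 high, and this comparison uses the same 3 arrays, so the choice favours lower values at P0. The changes are therefore a description, without p-values, and support nothing. In KO, 18 of the 41 were called, 16 lower and 2 higher, where 20% of all names were called, 11.4% lower and 8.56% higher. Every KO_E19 array was above every KO_P0 array for 17 of the 41, against 17.7% of all names. Nothing is read from these counts. Among V segments 10 of the 12 in the far section were called lower, 4 of 13 in the middle section and 1 of 12 in the near section. Called or not, the change was above 0 for 0 of the 12 far, 2 of the 13 middle and 5 of the 12 near segments. The median changes were -1.52, -0.50 and -0.08.

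Ighv1-77 fell by 2.39 (SE 0.39), to -3.49, -3.90, -4.85, -4.38 and -4.55 on the KO_P0 arrays. Ighv1-80 fell by 2.19 and Ighv1-83 by 2.08. Each KO_P0 array lay below each KO_E19 array in these 3.

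Ighv1-66 fell by 1.85, Ighv1-7 by 1.75, Ighv1-67 by 1.60, Ighv1-55 by 1.52 and Ighv1-85 by 1.51. LOC100505009 fell by 1.47, Ighv1-52 by 1.39, Ighv1-2 by 1.37 and Ighv1-39 by 1.19. Smaller falls were those of Ighv1-64 (0.93), the near segment Ighv14-3 (0.64), Ighv1-56 (0.62) and NAP093099-001 (0.31).

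Zfp386 and Ighv1-36 rose in KO. Zfp386 rose by 0.84 (SE 0.15), from 0.78, 0.46 and 0.72 to between 1.31 and 1.79, and its 2 other probes rose by 0.72 and 0.89. In WT its change was 0.38 (adjusted p = 0.1, limma), and the 2 other probes rose there too, by 0.75 and 0.62 (adjusted p = 0.0012 and 0.0026, limma over all kept probes). Ighv1-36 rose by 1.05, or 2.08-fold on this scale, from no array well above background to all 5. With a normexp background its log2 change was 0.085. Far V segments without a call were Ighv1-62-3 (-0.63) and Ighv1-63 (-0.54).

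The interaction compares the genotype effects of the ages. It holds the E19.5 effect on which the interval was chosen, so the choice favours a smaller effect at P0. None of the 41 was called, nor any of the 22639 names (0%), at 17 and 2124 with an unadjusted p under 0.05. The smallest adjusted p among the 41 was 0.12, for Ighv1-67, with a P0 effect 1.57 lower than the E19.5 effect. The median over the far V segments was -1.59, and Ighv1-39 had the largest value, -2.72 (adjusted p = 0.16). These values are a description for the same reason.

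**Figure D3:**
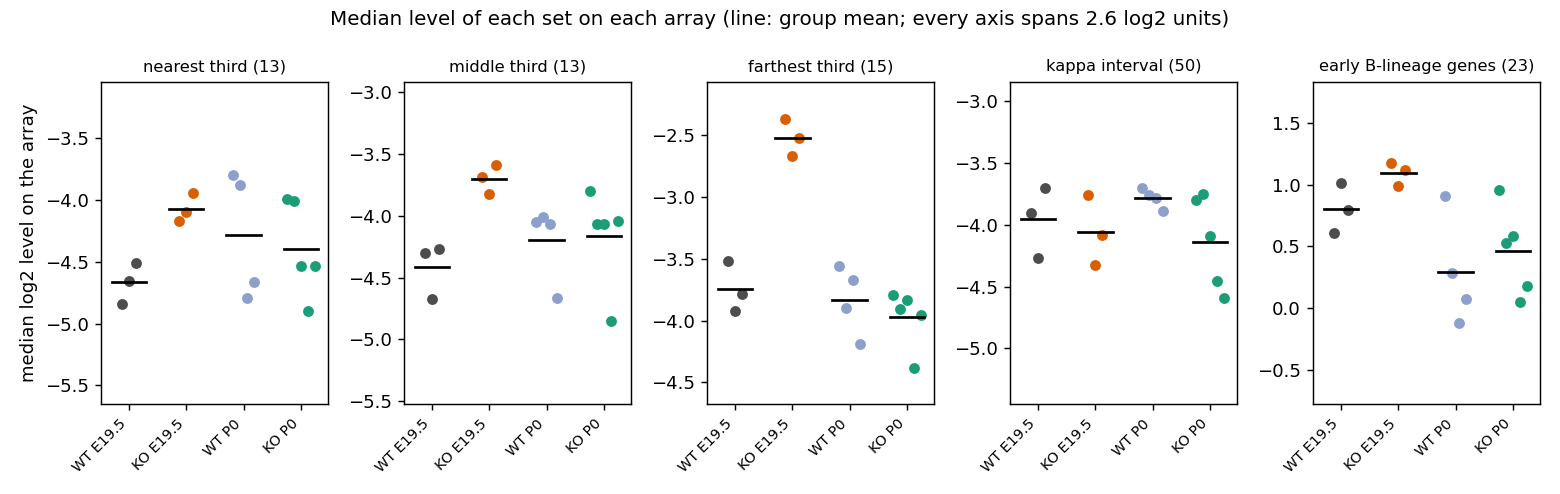
Median log2 level on each array (y axis) of the 3 sections, the kappa light chain interval and early B-lineage genes, by group (x axis); points are arrays, lines are group means, and every axis spans the same range. The far section of KO_E19 lies between -2.67 and -2.37, above the other 12 arrays, while the kappa interval and the B-lineage genes overlap between the E19.5 genotypes.

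No other B-cell transcript tested passed the test between the genotypes at E19.5, where only 0.0353% of all names did. At that share, 0 called in a list of this size says little, here and in the lists below. The constant mu segment, read by ENSMUST00000103426 just outside the interval, was at 1.89 to 2.23 in WT_E19 and 1.88 to 2.16 in KO_E19, a difference of 0.03 (SE 0.20). The 10 names on the constant side of the interval had a median difference of -0.03, and 50 names of the kappa light chain interval, a second antibody locus of V segments, had -0.05. In both sets 0 were called.

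Of 23 genes of early B-lineage cells, all were tested and 0 were called at either age between genotypes, with a median of 0.04 at E19.5. Over all names 0.0353% were called at E19.5 and 7.03% at P0. Vpreb1, a part of the surrogate light chain, differed by 0.13. Dntt, which adds bases at the joins, differed by -0.40 (adjusted p = 0.94). The summed level of these genes ran from 6.54 to 6.77 in WT_E19 and from 6.64 to 6.74 in KO_E19. From E19.5 to P0, 4 of the 23 were called in WT and 3 in KO, all lower, where 19% and 20% of all names were called. Among them were Vpreb1 and Vpreb2 in WT, lower by 0.75 and 0.61, and Vpreb2 in KO, lower by 0.58. The median change of the 23 was -0.33 in WT, with 3 above 0, and -0.24 in KO, with 4 above 0.

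Of 25 genes of mature B cells 24 were tested, with a median of -0.07 at E19.5 and 0 called. Of 12 plasma cell genes 8 were tested, and 0 were called at E19.5. Of 18 factors that act at the heavy chain locus in B cells 17 were tested, with a median of 0.01 and 0 called at E19.5. At P0, Bcl11a, a transcription factor of early B cells, was higher in KO by 0.60 (adjusted p = 0.029), and Sdc1, a plasma cell surface marker that hepatocytes also carry, was lower by 0.91 (adjusted p = 0.0082, limma). Granulocyte and monocyte genes had a median of 0.22 at E19.5 with 0 of 19 called, and hepatocyte genes -0.32 with 0 of 11 called.

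Names outside the interval whose level followed the per-array median of the 41 most closely over the 15 arrays were, in order, Hsh2d (Pearson r = 0.852), G6pdx (0.848), Mutyh (0.837) and Gsn. The next were a transcript named by its position on chromosome 16, TC1642106, 4632428N05Rik, Lyz2, Arpp21 and Tmem63a, the last at 0.801. The arrays share group structure and brightness, so these values describe likeness only.

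Most names of the interval were too dim to measure. Of the 103 names 62 did not meet the detection rule, and 30 of these were not well above background on any array of any group. The share that met it was 13 of 42 in the near section, 13 of 36 in the middle and 15 of 25 in the far section. The dimmest 3 that met it were Ighv2-9, Ighv3-8 and Ighv1-5, with mean levels of -5.41, -5.36 and -5.27. The 3 just outside it, well above background on 2 arrays of a group, were Ighv8-8, Ighv5-15 and Ighv9-4, at -5.02, -5.95 and -6.08. Another 28 probes of the interval carry only a position or a probe ID as a name and 8 of these met the detection rule. Their KO minus WT differences at E19.5 ran from -1.46 to 0.44, and none had KO_E19 wholly above WT_E19. The probe at -1.46, in the near section, had KO_E19 wholly below WT_E19. It was well above background on only 1 array of each of these groups.

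The size of the E19.5 difference depended on how dim signals were treated, and its order along the interval was the same under the 7 settings compared. The 7 include the main fit and slide as a block. That block could not change the E19.5 medians, because each slide with E19.5 arrays held as many WT_E19 as KO_E19 arrays. The interval was chosen on this difference, so the shared order is a description. In far, middle and near V segments the medians were 0.77, 0.29 and 0.08 in the authors' deposited table and 1.42, 0.76 and 0.37 after quantile normalization. With a normexp background and an offset of 50 they were 0.25, -0.09 and -0.17, so that the middle and near sections changed sign, while the median of all names was -0.04 and that of the kappa interval -0.25. Within slide 2, which held 2 arrays of each group, they were 1.38, 0.79 and 0.19.

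**Figure D4:**
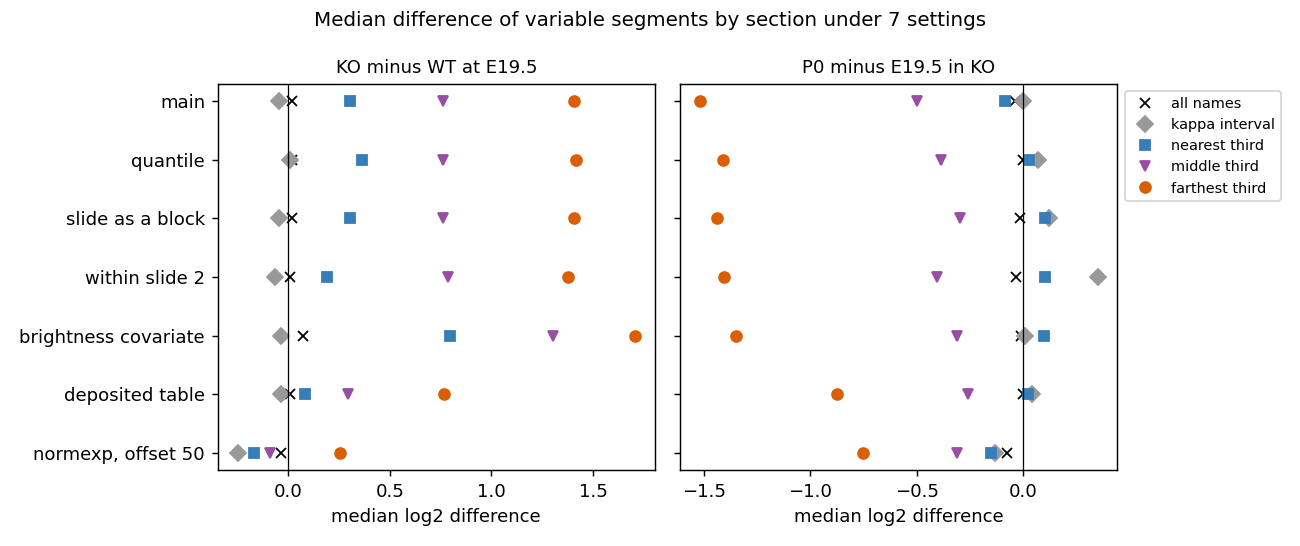
Median log2 difference (x axis) of V segments by section, the kappa interval and all names under 7 settings (y axis), for KO minus WT at E19.5 and P0 minus E19.5 in KO. The far section is highest at E19.5 and lowest in the change to P0 under every setting shown, from 0.25 to 1.71 and from -1.52 to -0.75.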

How the data were processed

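Total RNA of 15 mouse liver samples was labelled with Cy3 from a low input and hybridised to Agilent one-colour arrays with mm9 probe positions, 1 array per sample. The authors scanned and extracted the arrays with Agilent Feature Extraction 10.10, per the submitters' processing notes, which also name limma. The deposited scanner files hold background-subtracted signal intensity and other marks per spot (well above background, outlier, control), per the file headers. The authors' deposited series table holds log2 values of 35950 probes with a column median near 7.86, so arrays were set to a common median, and its background step is not given in the sources used here.

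From the processed intensity, spots of a probe were averaged without control spots and outlier flags, log2 was taken, and each array's 75th percentile was subtracted. A probe was kept if 3 or more arrays of any group marked it well above background, and the brightest stood for each name, which gave 22639 names. limma 3.58.1 in R 4.3.3 fitted 4 group means to all 15 arrays (11 residual and 2.5 prior degrees of freedom) with Benjamini-Hochberg adjustment over all names, and a name was called at an adjusted p under 0.05. The script was tested on simulated data. A fold against a group with no array well above background was taken against that group's own level or the lowest level well above background, whichever was higher. Such a level is uncertain, so the fold is not a lower limit. The number of arrays limits the precision. Slide 1 held E19.5 arrays, slide 2 held 2 arrays of each group and slide 3 held P0 arrays. The labels give no meaning to the replicate numbers. The deviations of same-numbered WT and KO arrays from their group means correlated weakly, at 0.132 to 0.266 at P0 and 0.01 to 0.209 at E19.5. Number 3 at P0 and number 2 at E19.5 correlated best with another number. The numbers were therefore not used as pairs in the main fit, and a replicate block was run only as an alternative. Symbols came from RefSeq's table for GRCm38.p6 (names only), which matched 37 of the 41, and sequences from the array files.

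The interval, the lists and the rules were chosen with earlier results of these data known. Transcripts named are those called in any comparison, the 6 brightest, the 3 dimmest, up to 3 just outside the detection rule and those that are not V segments, with others of the 41 chosen after their values were seen. From each list up to 4 genes could be named, called ones first, and for likeness the 10 names with the highest correlation. The values of 1 list gene that this rule names are not reported here. Alternatives changed the background, the scaling, the filter, the probe per name, the slide, the pairing and the arrays.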

Additional observations from a re-analysis of the deposited data

Results flagged for a closer look

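In 50 groups of 4 or 5 arrays checked for a single array far from the rest, 2 stood out, where chance gives about 1 in 20. Adam6b on KO_P0 array 2 was the lowest of its group at -3.91, with the next at -3.81. LOC100505009 on KO_P0 array 4 was the lowest of its group at -4.43, with the next at -3.79. Ighv1-39 moved in opposite directions between E19.5 and P0 in the genotypes: each WT_P0 array was above each WT_E19 array, and each KO_P0 array was below each KO_E19 array. The difference of the changes was -2.72, with an adjusted p of 0.16 in limma's test of the difference.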

How the results depend on the processing

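Of 644 comparisons of 23 single-transcript results with an alternative, 562 kept their direction and their side of the threshold, 81 lost the call and 1 reversed: Ighv1-39 from E19.5 to P0 in WT, at -0.44 with a normexp background. The count of 18 called from E19.5 to P0 in KO stayed between 12 and 20 under every alternative run.

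With normexp, the E19.5 count was 0 and the medians -0.053 (all 41) and 0.25 (far V segments), the far P0 median 0.10, the WT change 36 called with medians -0.50 and -0.53, the KO change -0.27 and -0.75, and the difference of effects 0.20 and -0.067. The median of all names in the WT change was -0.16 with normexp. The shares of all names called under the alternatives are not given here, so the counts are not read as particular to the interval. In the authors' deposited table, the E19.5 count was 7 with medians 0.26 and 0.77, the WT count 0, the KO medians -0.16 and -0.87, and the difference of effects -0.24 and -0.73. With no filter, the medians over all names of the interval were 0.048 (E19.5), -0.16 (KO change) and -0.19 (difference of effects), and 9 were called in the WT change. Quantile normalization called 1 there.

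With the 75th percentile as a covariate, E19.5 gave 1 called and medians 1.102 and 1.71, P0 -0.39 and -0.43, the WT change 0 called with 0.93 and 0.87, and the difference of effects -1.51 and -1.84. Brightness did not overlap between the E19.5 genotypes or between the ages within a genotype, so this covariate cannot separate it from them. With slide as a block, the far median was 0.078 in the WT change, and in the KO change the median of all 41 was -0.29 and the far median -1.44. Within slide 2, 0 were called at E19.5 and the WT medians were 0.27 and 0.18, and within slide 3 the far P0 median was 0.13. Without the 2 pancreas-marked arrays (chosen after seeing the data), P0 gave -0.25 and -0.41, the WT change 0.21 and 0.13, and the difference of effects 1 called and -0.84. Without the 5 muscle-marked arrays (also chosen after), 1 was called at E19.5, 1 in the WT change and 2 in the difference of effects. The causes of these shifts were not tested.

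The replicate number as a block over both ages called 6 at E19.5 and gave a far WT median of -0.0086. The replicate block at P0 alone (chosen after seeing the data) called 0 of the 41, as without it. Leaving out Ighv1-80 and Ighv9-3 (also chosen after) moved no median beyond the spread between arrays. Leaving out 1 array at a time, the counts called were 1 to 3 (E19.5, 1 without WT_E19 array 2, KO_E19 array 1 or KO_E19 array 3), 0 to 1 (P0, 1 without WT_P0 array 2), 1 to 3 (WT change), 13 to 19 (KO change) and 0 to 2 (difference of effects, 1 without WT_P0 array 1 and 2 without KO_P0 array 1). Most of these probes are dim, and signal over background limits single values.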
